A study of Mus musculus with 6 samples.

Results

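The genes described here encode the proteins of the small (40S) subunit of the cytosolic ribosome, in bone marrow-derived macrophages of the mouse. They were chosen by symbol: Rpsa, or Rps followed by a number with an optional letter or a final l and digit. The pattern matched 34 of the 55401 genes in the deposited table. 1 of these, Rps6kl1, is named as a kinase relative and was left out, which left 33 genes. Of these, 31 are annotated as protein coding, and Rps4l and Rps12l1 are annotated as processed pseudogenes. Pseudogene rows named with -ps and a number are not members, nor are the Rps6k kinases.

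RNA sequencing covered 3 libraries labelled KO, with the genotype Mettl3-/-, and 3 libraries labelled WT, with the genotype wild type. Both groups were bone marrow cells of C57BL/6 mice, from femur and tibia, cultured for 7 days with 40 ng/mL M-CSF and 10% serum, with no other agent in the labels. The labels do not say how Mettl3 was deleted, in which cells, at what age, or whether each library came from its own mouse, so the p-values below measure only how these samples vary, and that variation may be technical. Mettl3 encodes the enzyme that places N6-methyladenosine on messenger RNA.

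A ribosome joins a large subunit, which forms peptide bonds, to a small subunit, which binds the messenger RNA and matches its codons to transfer RNAs. The 40S subunit has a head and a body, with the messenger RNA running between them from an entry channel to an exit. Most of its proteins are made from short, abundant transcripts that start with a cytosine followed by a run of pyrimidines, the 5' terminal oligopyrimidine (TOP) motif, which couples their translation to mTOR signalling. These genes have also been copied many times into the genome as processed pseudogenes, which a short read may match as well as its source.

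The sequences at the start of these genes were read first, because the TOP motif is the feature by which the family is usually recognised. RefSeq start sites (build GRCm38.p6) were given for 23 of the 33 genes, and each window held 15 bases before the start and 15 from it. A C followed by at least 4 more C or T, beginning at the annotated first base, was found on the gene's strand in 6 of the 23, against 2.71% of 16522 coding genes with a start in the same table. The 6 windows are shown with the run in capitals, followed by Rps15, which fell most among the called genes below and has no such run at the annotated start.
Rps6 (chr4:86857353-86857382, minus strand): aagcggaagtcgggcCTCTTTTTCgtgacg
Rps10 (chr17:27635230-27635259, minus strand): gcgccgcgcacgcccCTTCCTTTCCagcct
Rps15a (chr7:118116133-118116162, minus strand): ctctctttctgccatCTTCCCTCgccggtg
Rps18 (chr17:33955651-33955680, minus strand): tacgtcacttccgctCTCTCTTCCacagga
Rps21 (chr2:180257364-180257393, plus strand): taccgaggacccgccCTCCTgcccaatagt
Rps27 (chr3:90213634-90213663, minus strand): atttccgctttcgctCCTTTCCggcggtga
Rps15 (chr10:80292416-80292445, plus strand): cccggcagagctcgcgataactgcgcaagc
A start annotated a few bases away hides the run, so its absence from a window says only that these letters are not there.

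Mettl3 itself did not follow the labels. FPKM is a count of fragments scaled by the length of the gene model and the size of the library. A call here means an adjusted p under 0.05 in edgeR's quasi-likelihood test on the estimated counts, with Benjamini-Hochberg adjustment over 16256 tested genes. Mettl3 read 2.50, 2.56 and 2.93 FPKM in labelled KO, against 2.62, 2.91 and 2.26 FPKM in WT (log2 fold change 0.02, adjusted p = 0.930 in edgeR). The groups overlapped. The Mettl3 gene overlaps Tox4 on the opposite strand, Tox4 read 18.8 ± 0.511 FPKM in labelled KO and 17.7 ± 0.0832 FPKM in WT (SD, n = 3 each), and whether the libraries keep the strand is not given in the sources used here. These genes overlap over 933 of the 5076 exonic bases of Mettl3 (18.4%). Unless the strand was kept, reads from those bases cannot be assigned to 1 of the 2 genes. Libraries are therefore called by their labels.

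In macrophages from the libraries labelled KO, 9 of the 32 tested genes of the small subunit fell and 1 rose, and 22 were not called. The 9 that fell were Rps15, Rps26, Rps10, Rps3, Rps6, Rpsa, Rps18, Rps19 and Rps16, with fitted changes from -14.2% to -6.92%. The gene that rose was Rps4l, a transcribed processed pseudogene. Without WT replicate 2, 5 members were called lower, where 3.18% of all tested genes were. Without any other single library 6 to 8 members were called lower, where 3.33% to 3.66% of all tested genes were. Over all 16256 tested genes, 5.67% were called lower and 7.01% were called higher. With upper-quartile scaling in place of TMM, the split over all genes was 1137 lower and 958 higher, against 921 lower and 1139 higher.

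The changes were small and mostly in 1 direction. Of the 32 tested genes, 29 had a fitted change below 0 (90.6%, against 50.7% of all tested genes). Their median log2 fold change was -0.12, or -7.71%, beside 0.00 for the median of all tested genes. Among the 4634 tested genes at least as abundant as the least abundant coding member, 12.4% were called lower and 16.1% higher, and their median log2 fold change was 0.01. In 17 of the 32 genes every labelled KO value in FPKM lay below every WT value, and in 1 every labelled KO value lay above, where 14.6% and 19.1% of all tested genes did so. In these bulk RNA libraries, fewer cells with many ribosomes and less RNA per cell cannot be told apart.

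The 33 genes took 0.838%, 0.874% and 0.862% of all estimated counts in the libraries labelled KO, against 0.918%, 0.928% and 0.912% in the WT libraries. All 3 labelled KO shares lay below all 3 WT shares. Libraries held 67280390 to 77997742 estimated counts. Replicates lay close together: the median coefficient of variation (CV) of FPKM over these genes was 3.45% in the libraries labelled KO and 2.63% in WT. In 7 genes it passed 10% in at least 1 group, and 6 of these are taken up below.

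**Figure D1:**
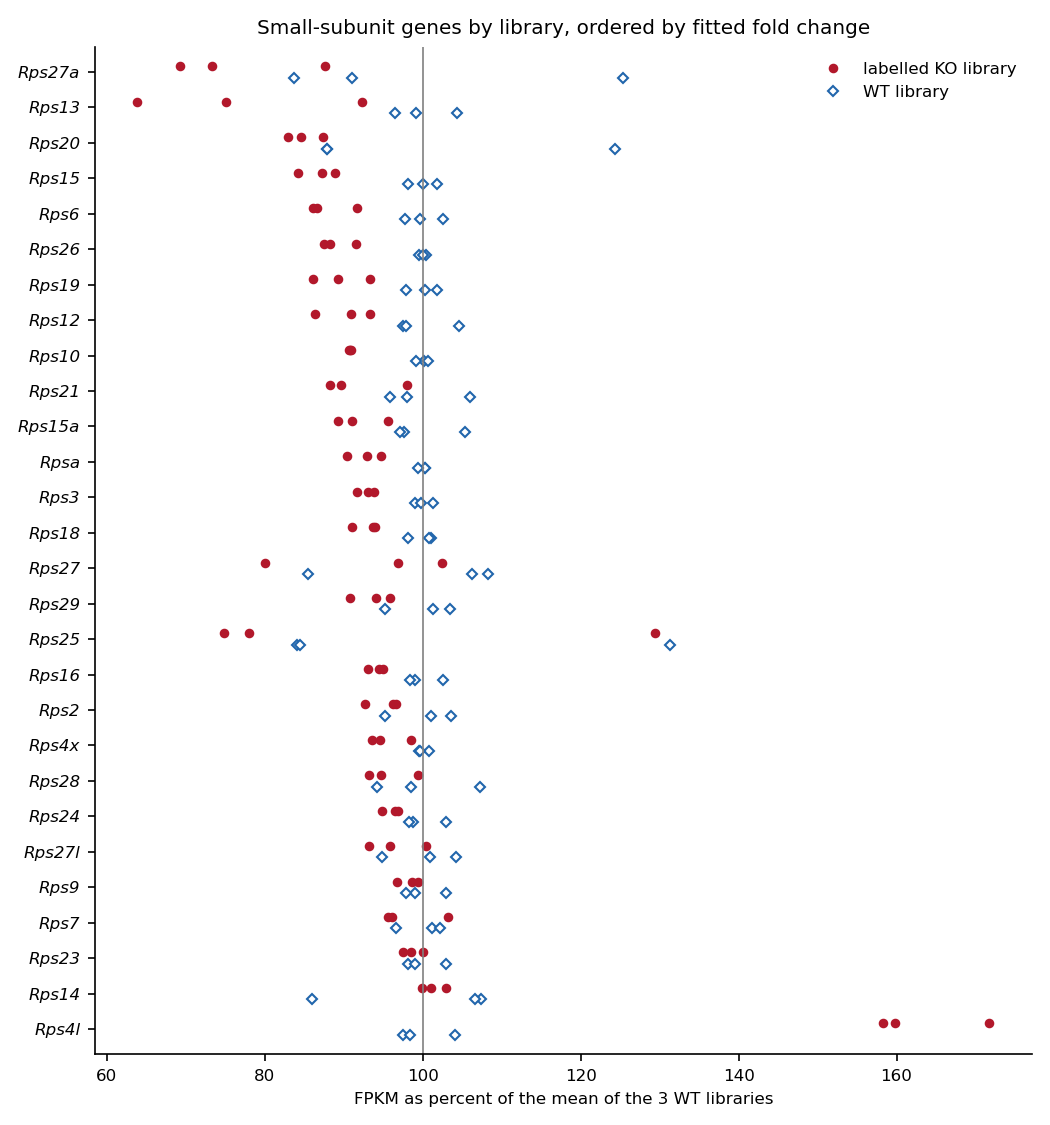
FPKM of 28 tested small-subunit genes in each library, as percent of the mean of the 3 WT libraries for that gene (x axis), with genes ordered by fitted fold change (y axis). Filled circles are libraries labelled KO and open diamonds are WT libraries. Most filled circles lie left of 100, Rps4l lies far to the right, and Rps25, Rps27a, Rps13 and Rps20 are spread widely within a group.

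The labelled cell type was checked against marker lists, where 7.01% of all tested genes were called higher and 5.67% lower. Of 8 macrophage markers, 3 rose and 3 fell, and their summed FPKM was 8357 to 8445.5 in labelled KO and 16333 to 16679 in WT, of which Lyz2 alone read 5943 to 6066 in labelled KO and 14037 to 14431 in WT. Of 9 neutrophil markers, 7 were tested and 2 rose (1 or 2 with a library left out). Of these 7, none was called lower in edgeR or limma, 1 was in DESeq2, and 2 were lower at an unadjusted p under 0.05. Neutrophil markers summed to 126 to 136 FPKM in labelled KO and 111 to 116 in WT. Of 8 tested markers of T and NK cells none was called in edgeR, DESeq2 or limma and 1 was higher at an unadjusted p under 0.05, and their sum was 8.33 to 8.56 FPKM in labelled KO and 6.59 to 7.76 in WT. Of 5 tested B cell markers none was called in edgeR or DESeq2 and 1 was lower in limma and at an unadjusted p under 0.05. B cell markers summed to 1.69 to 1.87 FPKM in labelled KO and 2.05 to 2.27 in WT. Of 6 stromal markers Dcn alone was called higher, a call that held with 1 library left out only when that was KO replicate 1. Stromal markers summed to 1.80 to 2.02 FPKM in labelled KO and 1.70 to 2.17 in WT. No erythroid marker passed the filter, and the 4 adult globin genes were listed at 0 in every library. The part of these differences in the small-subunit values was not tested.

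Proteins of the head of the 40S subunit are described first. Rps15, a head protein needed in yeast and human cells for export of the pre-40S particle from the nucleus, read 483, 500 and 509 FPKM in the libraries labelled KO, against 573, 584 and 562 FPKM in WT. The highest labelled KO library was below the lowest WT library. The log2 fold change was -0.22 ± 0.028 (SE, adjusted p = 0.00418 in edgeR), and 95% limits on the change ran from -18.1% to -10.1%. Rps15 (ENSMUSG00000063457) lies on chromosome 10, from 80292453 to 80294114 on the plus strand in mm10, and was also the most abundant member in FPKM.

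Rps10, which lies near the entry of the messenger RNA channel and is ubiquitinated when ribosomes collide, read 60.6, 60.8 and 60.7 FPKM in the libraries labelled KO, against 66.9, 67.3 and 66.2 FPKM in WT. Within each group these values differed by far less than the groups did. The log2 fold change was -0.16 (SE 0.0234, adjusted p = 0.00824 in edgeR). The gene shares 189 exonic bases with Gm15420 on the opposite strand. Unless the libraries keep the strand, which is not given, reads there cannot be assigned to 1 of the 2 genes. Exons of Rps10 also overlap RPS10-NUDT3 on the same strand, where strand does not separate reads.

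Rps3 forms part of the entry channel and also has roles in DNA repair. It read 88.2, 87.5 and 86.3 FPKM in the libraries labelled KO, against 93.1, 95.2 and 93.8 FPKM in WT, with no overlap. The log2 fold change was -0.12 (SE 0.0188, adjusted p = 0.00876 in edgeR).

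Rps18, Rps19 and Rps16 complete the head proteins that fell. Rps18, which reaches toward the large subunit, read 101, 101 and 97.8 FPKM in the libraries labelled KO, against 109, 108 and 105 FPKM in WT. Rps19, the gene most often mutated in human Diamond-Blackfan anaemia, read 39.2, 41.0 and 37.8 FPKM in the libraries labelled KO, against 44.7, 43.0 and 44.1 FPKM in WT. Rps16, whose tail reaches the peptidyl-tRNA, read 206, 207 and 203 FPKM in the libraries labelled KO, against 224, 216 and 215 FPKM in WT.

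None of these 3 genes overlapped between groups, but their calls rested on all libraries being kept. Rps18 changed by -0.12 (log2, adjusted p = 0.0214 in edgeR) and its adjusted p reached 0.0715 at most when 1 library was left out, the call being lost without any single library other than WT replicate 3. Rps19 changed by -0.18 (adjusted p = 0.0243 in edgeR, up to 0.0777 with 1 library left out), and only leaving out KO replicate 2 kept its call. Rps16 changed by -0.10 (adjusted p = 0.0385 in edgeR), and leaving out any of the 6 libraries lost its call, with adjusted p from 0.0678 to 0.113. Rps18 also shares 156 exonic bases with Vps52 on the opposite strand.

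Among proteins of the body and platform, Rps6, Rps26 and Rpsa fell. Rps6, the target of the S6 kinases and the classical readout of mTOR signalling, read 221, 234 and 220 FPKM in the libraries labelled KO, against 262, 249 and 254 FPKM in WT. The groups did not overlap (log2 fold change -0.20, SE 0.0318, adjusted p = 0.0105 in edgeR). Rps26, which contacts the messenger RNA near the exit, read 142, 148 and 141 FPKM in the libraries labelled KO, against 160, 162 and 161 FPKM in WT. Again every labelled KO value was lower (log2 fold change -0.18, SE 0.0247, adjusted p = 0.00536 in edgeR).

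Rpsa, at the exit side and also known as the laminin receptor precursor, read 155, 163 and 160 FPKM in the libraries labelled KO, against 172, 172 and 171 FPKM in WT. The WT libraries had a CV of 0.509% and all lay above the labelled KO libraries. The log2 fold change was -0.13 (SE 0.0216, adjusted p = 0.0135 in edgeR), and without WT replicate 2 the adjusted p was 0.0509. Rps15, Rps26, Rps10, Rps3 and Rps6 kept their calls whichever library was left out. With the replicate number as a block in the fit, 2 members were called lower, where 2.83% of all tested genes were. Rps26 kept its call there (adjusted p = 0.03215 in edgeR) and Rps6 did not (adjusted p = 0.05784 in edgeR).

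**Figure D2:**
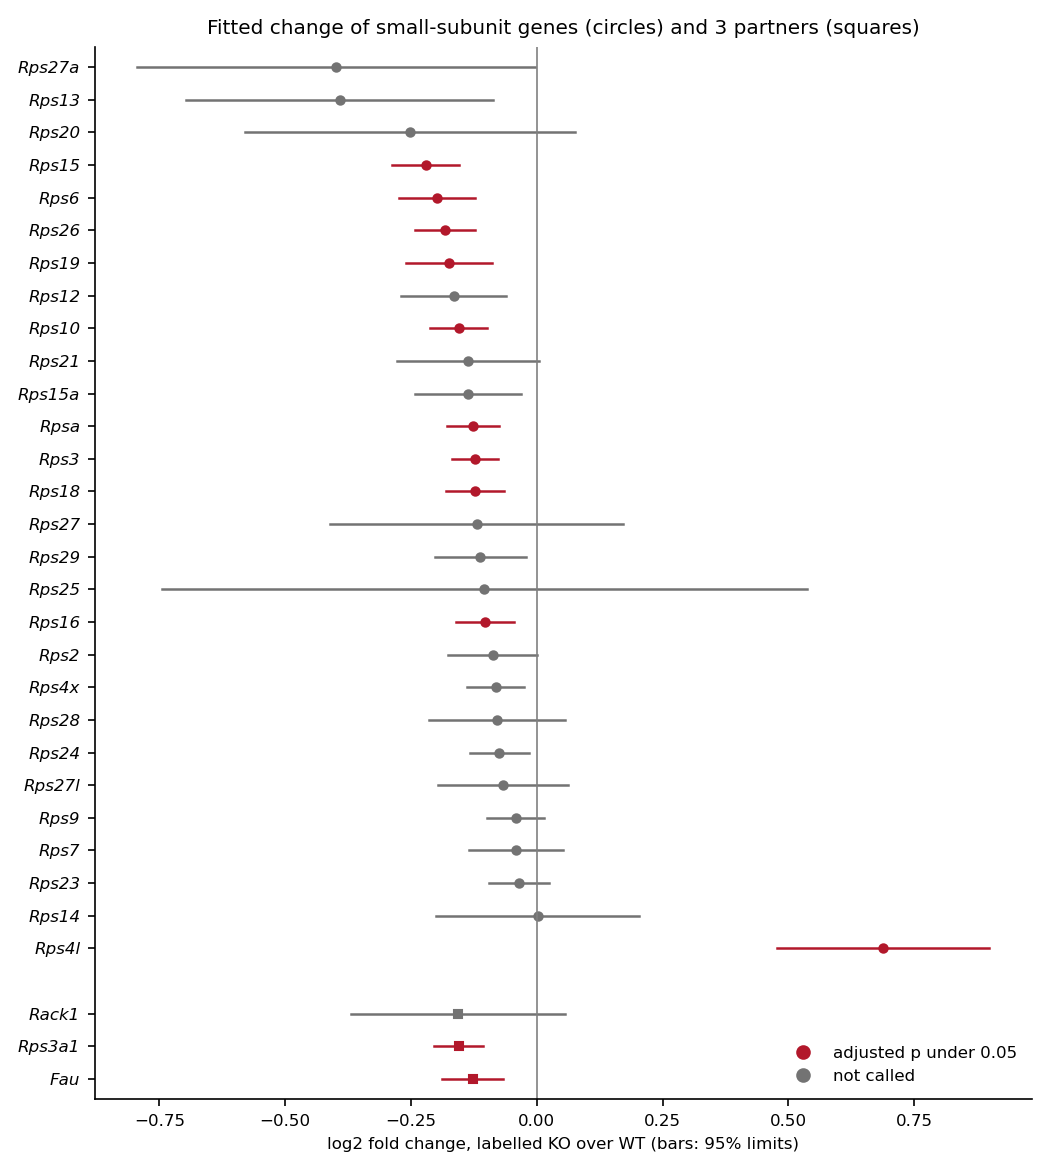
Fitted change, labelled KO over WT, on the log2 scale (x axis, bars are 95% limits) for 28 tested small-subunit genes (circles) and 3 other 40S components (squares). Red marks an adjusted p under 0.05 in edgeR and grey the rest. The called genes that fell lie between -0.22 and -0.10, and Rps4l stands alone at 0.69.

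Of the 22 tested genes that were not called, Rps29 and Rps23 were among the 3 most abundant in FPKM. Rps29, a zinc-binding head protein, averaged 482 ± 13.4 FPKM in the libraries labelled KO and 515 ± 22.045 FPKM in WT (SD, n = 3 each). The groups overlapped, with KO replicate 2 above WT replicate 3 (log2 fold change -0.11, 95% limits -0.20 and -0.02, adjusted p = 0.115 in edgeR). Rps23, which lines the decoding centre, averaged 290 ± 3.64 FPKM in labelled KO and 293 ± 7.48 FPKM in WT (SD, n = 3 each). Its log2 fold change was -0.04, with 95% limits of -0.09 and 0.02 (adjusted p = 0.436 in edgeR).

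Rps14 had a fitted change close to 0, which changed sign when single libraries were left out and with other scalings and filters. Rps14, whose reduced dosage underlies the anaemia of the human 5q- syndrome, read 152, 149 and 147 FPKM in the libraries labelled KO, against 127, 158 and 157 FPKM in WT. WT replicate 1 lay apart from the other WT libraries, and without it the log2 fold change was -0.10 in place of 0.00 (adjusted p = 0.0627, against 0.993 with all libraries, in edgeR).

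Of the remaining uncalled genes, Rps12, Rps15a and Rps24 had every labelled KO value in FPKM below every WT value. Rps2, Rps21, Rps9, Rps28 and Rps7 overlapped between groups. Fitted log2 fold changes of these genes ran from -0.17 for Rps12 (adjusted p = 0.0575 in edgeR) to -0.04 for Rps7 (adjusted p = 0.575 in edgeR). At an unadjusted p under 0.05 in edgeR, 19 of the 32 genes passed, 26.5% of all tested genes doing so. By the exact two-sided permutation test on log2(FPKM + 0.1), 18 of the 32 genes reached p = 0.1, the smallest that 20 splits of 3 against 3 libraries can give. These are the genes whose groups did not overlap in either direction, as was so for 33.8% of all tested genes.

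The members hold 3 pairs of related genes, Rps27 with Rps27l, Rps4x with Rps4l and Rps12 with Rps12l1, and Rps27 also has an identical copy outside the naming pattern. Rps27l is a relative of Rps27 that is induced by p53 in mouse and human cells. Rps27rt is a copy on chromosome 9, annotated as protein coding. Over 252 coding bases, Rps27rt was identical to Rps27 and Rps27l was 76.2% identical to it. The first 90 coding bases are shown, from GENCODE M21 transcripts, with capitals where a base differs from Rps27.
Rps27 (chromosome 3, minus strand): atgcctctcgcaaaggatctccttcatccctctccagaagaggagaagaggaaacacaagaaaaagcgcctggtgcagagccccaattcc
Rps27rt (chromosome 9, minus strand): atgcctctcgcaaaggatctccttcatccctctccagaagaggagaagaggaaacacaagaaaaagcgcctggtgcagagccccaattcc
Rps27l (chromosome 9, plus strand): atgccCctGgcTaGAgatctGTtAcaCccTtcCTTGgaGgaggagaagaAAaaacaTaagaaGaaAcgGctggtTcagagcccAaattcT
A read that falls within the coding bases cannot separate Rps27 from Rps27rt.

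Rps27 read 136, 165 and 174 FPKM in the libraries labelled KO, against 180, 184 and 145 FPKM in WT. KO replicate 1 and WT replicate 3 were the low ones, and the groups overlapped (log2 fold change -0.12, 95% limits -0.41 and 0.17, adjusted p = 0.605 in edgeR). Rps27rt read 150, 104 and 60.8 FPKM in the libraries labelled KO, against 46.1, 72.7 and 151 FPKM in WT. Its 2 highest libraries, KO replicate 1 and WT replicate 3, were the 2 in which Rps27 was lowest (log2 fold change 0.21, SE 0.489, adjusted p = 0.843 in edgeR).

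Rps27 and its annotated copies, Rps27rt included, summed to 227, 242 and 234 CPM (counts scaled by library size) in the libraries labelled KO, against 236, 252 and 238 in WT. In CPM, the coefficient of variation of the sum was 3.384% in labelled KO and 3.497% in WT, against 12.7% in labelled KO and 12.9% in WT for Rps27 alone. Rps27l, by contrast, had close replicates, with 41.6 ± 1.57 FPKM in labelled KO and 43.1 ± 2.03 FPKM in WT (SD, n = 3 each; log2 fold change -0.07, 95% limits -0.20 and 0.06, adjusted p = 0.497 in edgeR).

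Rps4l was the 1 member that rose. Rps4l (ENSMUSG00000063171) is annotated as a transcribed processed pseudogene on chromosome 6, from 148354656 to 148355598 on the plus strand in mm10, inside Tmtc1, which is on the opposite strand and had 0 to 23 counts per library. Its transcript aligned to Rps4x, which encodes a protein of the 40S body. Over 783 aligned columns the 2 were 79.95% identical, with 157 that differed. The start of the Rps4x coding sequence and the matching bases 55 to 144 of the Rps4l transcript are shown, with capitals where Rps4l differs.
Rps4x (chromosome X, minus strand): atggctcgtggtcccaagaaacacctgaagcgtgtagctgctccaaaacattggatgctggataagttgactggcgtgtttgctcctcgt
Rps4l (chromosome 6, plus strand): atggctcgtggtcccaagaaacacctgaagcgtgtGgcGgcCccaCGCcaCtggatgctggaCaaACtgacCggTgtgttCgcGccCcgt
The differences are spread along the stretch after a shared beginning.

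Rps4l read 7.23, 6.72 and 6.66 FPKM in the libraries labelled KO, against 4.11, 4.14 and 4.38 FPKM in WT. The groups lay far apart relative to their spread, with a log2 fold change of 0.69 ± 0.0878 (SE, adjusted p = 0.00436 in edgeR) and 95% limits on the rise of 39.2% and 86.5%. The call held whichever library was left out. These values rest on 488 to 576 counts in labelled KO and 294 to 319 in WT, the smallest counts of any tested member. Rps4x read 271, 286 and 275 FPKM in the libraries labelled KO, against 292, 289 and 289 FPKM in WT. Its groups did not overlap, with labelled KO lower, but it was not called (log2 fold change -0.08, adjusted p = 0.0756 in edgeR). Without KO replicate 2 the adjusted p of Rps4x in edgeR was 0.0362, and without any other single library it was not called.

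Rps12l1, the other processed pseudogene, had no counts in any library and was not tested. Its transcript matches all 396 coding bases of Rps12, and its 399 bases all lie within Gm44510 on the opposite strand, which had 45 to 476 counts per library. Rps12-ps3, a copy of Rps12, also matches all 396 coding bases and had 6891 to 8184 counts per library. Reads from the shared bases could be assigned to any of these genes, so the 0 does not show that Rps12l1 is silent.

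The genes with a CV above 10% in a group included Rps25, Rps27a, Rps14, Rps20, Rps27 and Rps13. Near-identical copies were searched by aligning each member's coding sequence to all annotated transcripts, and a copy was counted at 90% identity over at least 50% of the coding sequence. Of the 32 members with counts, 31 had at least 1 such copy, and 312 of the 324 copies were annotated as pseudogenes. Rps2 had the most, 49, and the median was 9. Copies took a median of 10.4% of the combined counts of a member and its copies, more than 10% in 16 members, and 50.7% for Rps12.

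Rps27a, which encodes ubiquitin fused to a 40S head protein, read 76.0, 71.7 and 90.7 FPKM in the libraries labelled KO, against 130, 94.2 and 86.6 FPKM in WT. WT replicate 1 stood above the rest. Its copy Rps27a-ps2, 99.79% identical over 467 coding bases, had 9742, 9855 and 6283 counts in the libraries labelled KO, against 1360, 6222 and 10361 counts in WT.

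The copy was lowest where Rps27a was highest. With all its copies added, Rps27a summed to 321, 324 and 298 CPM in the libraries labelled KO, against 327, 327 and 367 in WT. The log2 fold change was -0.13 with the copies added and -0.40 without them, and neither was called (adjusted p = 0.208 and 0.186 in edgeR).

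Rps13, a body protein, was low in KO replicate 2, where its copies were high. It read 34.7, 29.6 and 42.7 FPKM in the libraries labelled KO, against 45.9, 48.3 and 44.7 FPKM in WT, and was not called (log2 fold change -0.39, adjusted p = 0.104 in edgeR); without KO replicate 3 the adjusted p was 0.0182. Its copies took 27.4%, 42.4% and 17.4% of the combined counts in the libraries labelled KO, against 20.48%, 12.97% and 19.04% in WT. With copies added the sums were 144, 156 and 157 CPM in the libraries labelled KO, against 175, 168 and 166 in WT, and the sum was called lower (log2 fold change -0.18, adjusted p = 0.0341 in edgeR).

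Rps25 and Rps20 were spread in another way. Within each group their copies were lowest where the gene was highest, but by much less than the gene varied. With copies added, the CV of Rps25 in CPM was 29.2% in labelled KO and 22.2% in WT, against 32.8% and 26.8% alone. For Rps20 in WT it was 18.5% with copies and 21.2% alone. Rps25, needed for initiation from some viral internal ribosome entry sites, read 42.9, 71.1 and 41.1 FPKM in the libraries labelled KO, against 46.2, 46.5 and 72.2 FPKM in WT. KO replicate 2 and WT replicate 3 were alike and far above the other 4 libraries. Rps25 shares 668 exonic bases with Ccdc84 and Trappc4 on the opposite strand, and the part of that overlap in its spread was not tested. Rps20, ubiquitinated with Rps10 at collided ribosomes, read 36.7, 38.6 and 37.4 FPKM in the libraries labelled KO, against 38.8, 54.9 and 38.8 FPKM in WT. WT replicate 2 alone was high, and without it the log2 fold change was -0.06, against -0.25 with it (adjusted p = 0.308 in edgeR).

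**Figure D3:**
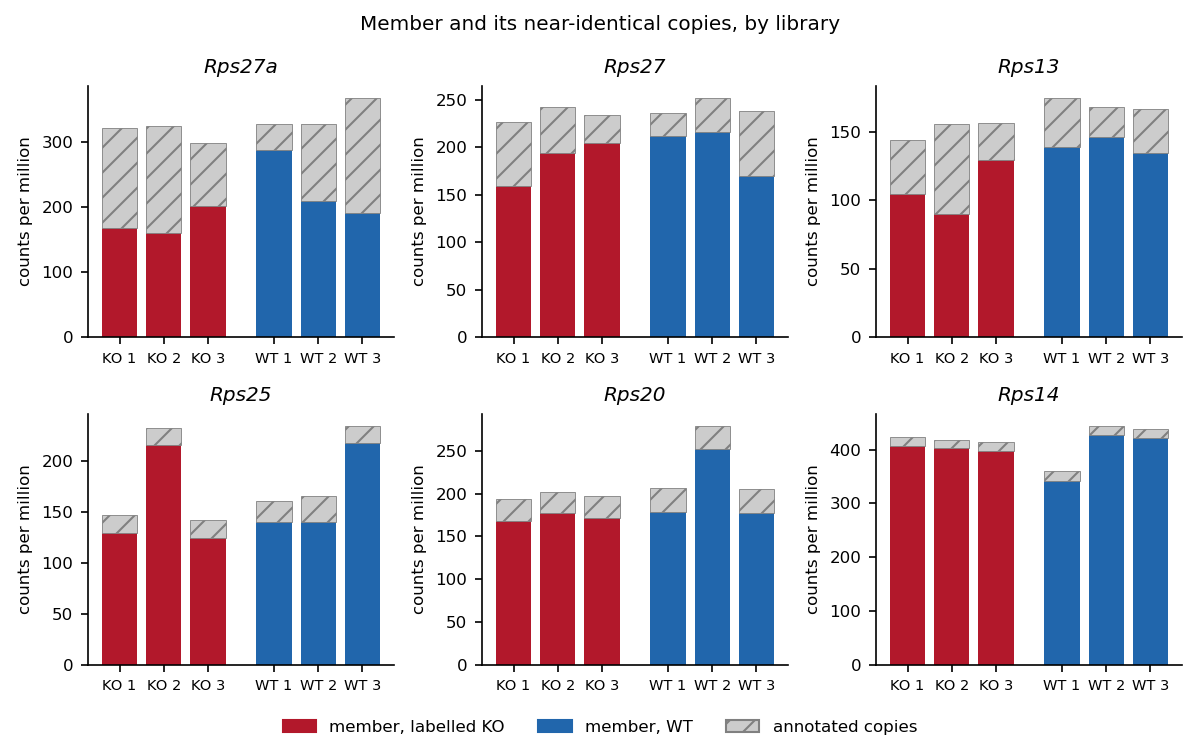
CPM of 6 small-subunit genes (solid bars, red for libraries labelled KO and blue for WT) and of their annotated copies stacked on top (hatched grey), by library; the y axis starts at 0. In Rps27a, Rps27 and Rps13 the stacked totals are more even between replicates than the solid bars, and in Rps25, Rps20 and Rps14 the outlying libraries stay out of line when copies are added.

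When the counts of all copies were added to their member before the fit, an alternative chosen after seeing the data, 13 members were called lower, where 5.84% of all tested genes were. All 9 genes called lower without that step were also called with it, and the sums of Rps4x, Rps2, Rps12 and Rps13 joined them. Copies of Rps4x alone read 41.26, 41.56 and 41.73 CPM in labelled KO, against 60.63, 47.93 and 58.45 in WT. Copies of Rps2 and of Rps12 were also lower in every labelled KO library than in any WT library, and those of Rps13 overlapped. The part of the copies in these calls was not tested. Among the copies was Med21, which encodes a Mediator subunit and has a transcript with a stretch 97.39% identical to the Rps26 coding sequence. It held 63.4% to 76.7% of the counts added to Rps26, which was called with and without them. The median log2 fold change was then -0.12. The largest copy share was that of Rps12, and its copy Rps12-ps3 has an identical coding sequence and read 227 ± 8.56 FPKM in labelled KO and 251 ± 13.8 FPKM in WT (SD, n = 3 each). Rps10-ps2, a copy of Rps10, was itself called lower, with 155 ± 4.55 FPKM in labelled KO and 171 ± 3.45 FPKM in WT (SD, n = 3 each; log2 fold change -0.15, adjusted p = 0.0419 in edgeR, and up to 0.128, with the call lost, when any 1 library was left out). Reads of such copies and of their members cannot be told apart with certainty.

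The order of the levels depended on the length used. The deposited FPKM divides by the union of all annotated exons, and 28 of the 33 genes have an annotated transcript that keeps an intron. In coding members that union was 1.10 to 9.80 times the length of the principal messenger RNA. In FPKM the order began with Rps15 at 535, Rps29 at 499 and Rps23 at 292, averaged over 6 libraries. In CPM per kilobase of principal messenger RNA it began with Rps29 at 996, Rps9 at 858 and Rps15 at 758. Rps15a was lowest of the coding members in FPKM, at 28.9, and read 318 on the second scale, since its exon union is 6270 bases and its principal messenger RNA 640 bases.

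**Figure D4:**
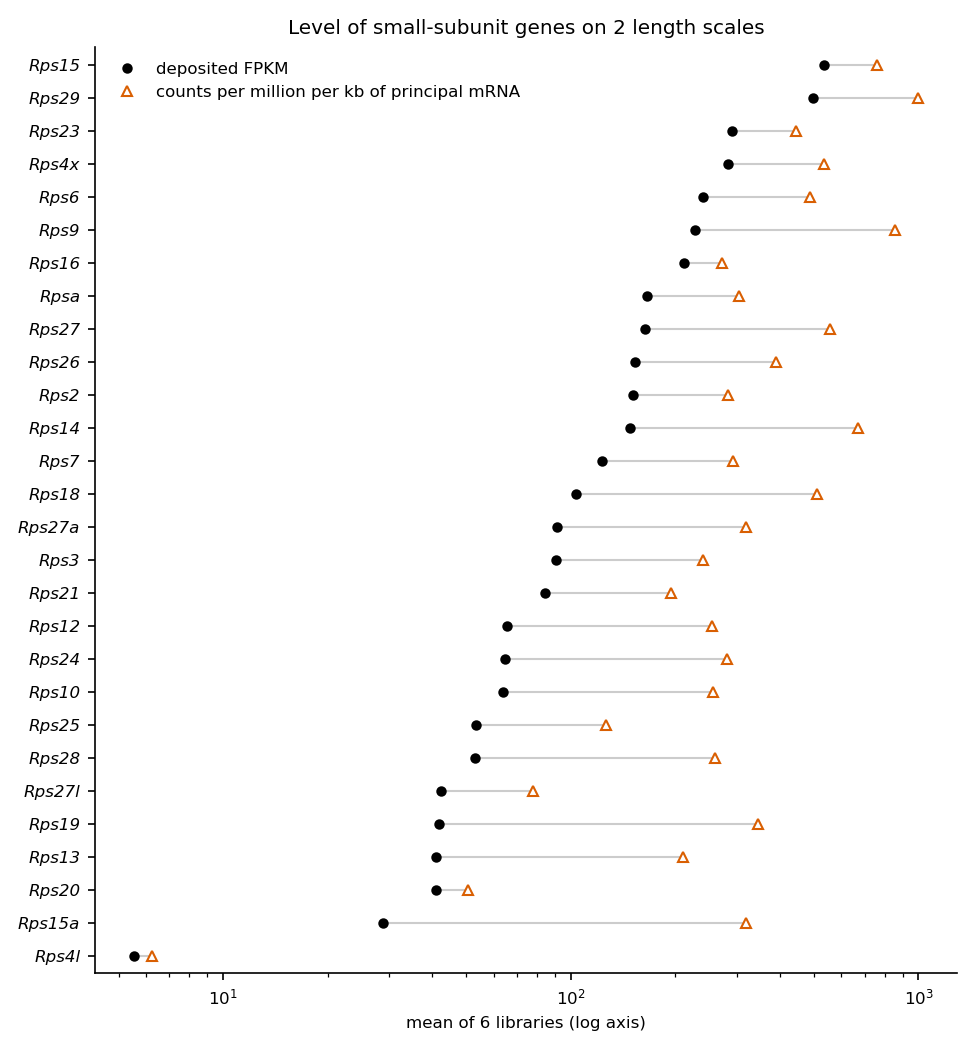
Mean level over 6 libraries of 28 small-subunit genes with counts (log x axis), as deposited FPKM (black circles) and as CPM per kilobase of the principal messenger RNA (open triangles). Rps15a moves from 28.9 to 318 and Rps20, whose principal messenger RNA is annotated with 3706 bases, moves only from 40.9 to 50.6.

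The members lie on 14 chromosomes, 10 of them on chromosome 7, and 9 members hold 17 small nucleolar RNA genes. The start sites set out above were matched to the calls, where 5.67% of all tested genes were called lower. Of the 6 genes with the pyrimidine run, 3 (Rps6, Rps10 and Rps18) were called lower. Of the 17 with a start but no run, 6 were. All 9 members called lower had a start given, and 10 members had none. Whether the run goes with the calls was not tested. GGACT, the best-known letters of the N6-methyladenosine motif, was looked for in the sequence of the principal messenger RNA. It was present in 17 of 31 coding members (54.8%) and in 81.1% of 15945 coding genes with a messenger RNA in the same range of lengths, 345 to 3706 bases. The members are short within that range, with a median of 661 bases, while the median over all coding genes is 2370 bases. Of the 9 members called lower, 3 held it.

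Among 4 other genes of 40S components, Rps3a1 and Fau fell, where 5.67% of all tested genes did. Rps3a1, whose symbol lies outside the naming pattern, read 490, 504 and 489 FPKM in the libraries labelled KO, against 537, 548 and 547 FPKM in WT. Its groups did not overlap (log2 fold change -0.16, adjusted p = 0.00460 in edgeR), and its call held whichever library was left out. Fau, which encodes the 40S protein S30 fused to a ubiquitin-like protein, read 331, 339 and 339 FPKM in the libraries labelled KO, against 356, 360 and 374 FPKM in WT (log2 fold change -0.13, adjusted p = 0.0223 in edgeR). Its groups did not overlap either, but leaving out any library other than WT replicate 1 lost the call, with adjusted p up to 0.0689. Rack1, the scaffold on the head, read 97.0, 83.8 and 81.6 FPKM in the libraries labelled KO, against 90.4, 91.3 and 107 FPKM in WT, with overlapping groups (log2 fold change -0.16, adjusted p = 0.329 in edgeR).

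Beside the small subunit, 21 of 51 tested genes of the cytosolic large subunit were called lower, where 5.67% of all tested genes were. The share called lower was 12.4% among tested genes at least as abundant as the least abundant coding member of the small subunit. The median log2 fold change of the large-subunit genes was -0.14. Leaving out 1 library gave 12 to 17 such calls, with 12 without KO replicate 3 and 13 without KO replicate 1 or WT replicate 3. Fits without 1 library called 3.18% to 3.66% of all tested genes lower. The difference between the 2 subunits was not tested. Genes of the mitochondrial small subunit, named Mrps, had a median of 0.10. Of 29, 2 were called higher and 1 lower, where 7.01% and 5.67% of all tested genes were. The lower call was lost when any 1 library was left out.

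**Figure D5:**
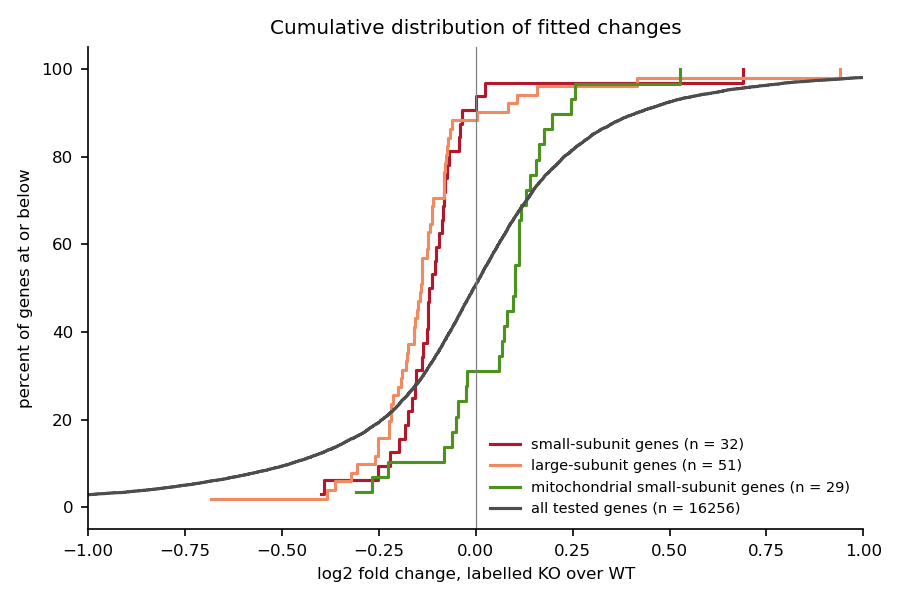
Cumulative share of genes (y axis, percent) at or below each fitted change, labelled KO over WT, on the log2 scale (x axis, shown from -1 to 1), for small-subunit, large-subunit, mitochondrial small-subunit and all tested genes. The curves of both cytosolic subunits lie left of 0, with medians of -0.12 and -0.14, and the mitochondrial curve lies right of 0 at its median of 0.10.

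Of 18 genes outside the ribosome listed as having TOP messenger RNAs, 9 fell, where 5.67% of all tested genes did. Whether each of them carries such a start is not shown here. Among tested genes at least as abundant as the least abundant coding member of the small subunit, 12.4% were called lower. The median log2 fold change of the 18 was -0.11. Leaving out 1 library gave 6 or 7 such calls: Eif4b and Btf3 lost theirs in each case, and Naca in each case but that of KO replicate 2. Tpt1, which encodes the translationally controlled tumour protein, averaged 447 ± 2.16 FPKM in labelled KO and 498 ± 3.85 FPKM in WT (SD, n = 3 each; log2 fold change -0.17, adjusted p = 0.000467 in edgeR). Pabpc1, the cytoplasmic poly(A)-binding protein, fell by 0.17 on the log2 scale (adjusted p = 0.000855), and Eef2, the elongation factor that moves the ribosome along, fell by 0.10 (adjusted p = 0.00169, both in edgeR).

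Genes that build the 40S subunit were mostly not called, where 5.67% of all tested genes were called lower and 7.01% higher. Of 16 assembly factors, 1 fell, with a median of 0.01 on the log2 scale. It was Riok3, a kinase acting on the late pre-40S particle, with a log2 fold change of -0.18 (adjusted p = 0.0222 in edgeR). Of 41 members of the small-subunit processome, Rcl1 rose (log2 fold change 0.53, adjusted p = 0.0249 in edgeR) and Heatr1 fell (-0.13, adjusted p = 0.0266 in edgeR), and the median was -0.05. When 1 library was left out, Riok3 kept its call only without KO replicate 1 and Rcl1 only without WT replicate 2. Heatr1 lost its call without any of the 6 libraries, and adjusted p reached 0.0772, 0.0880 and 0.0872 for Riok3, Rcl1 and Heatr1.

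Regulators of the small subunit were mostly not called, where 5.67% of all tested genes were called lower and 7.01% higher. Of 9 tested S6 kinases, Rps6ka1 rose (log2 fold change 0.11, adjusted p = 0.0363 in edgeR) and the median was 0.045. Of 13 regulators of TOP messenger RNA translation, 1 fell, Cnbp, at -0.17 (adjusted p = 0.0266 in edgeR), and the median was 0.10. Both calls were lost when any 1 library was left out, with adjusted p up to 0.108 for Rps6ka1 and 0.0871 for Cnbp. Of 7 genes of ribosome quality control on the 40S subunit none was called in edgeR, DESeq2 or limma, and 4 were higher at an unadjusted p under 0.05. The most abundant were Rnf10 at a log2 fold change of -0.07 (adjusted p = 0.266) and Rnf25 at 0.24 (adjusted p = 0.157, and 0.0224 without WT replicate 3).

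Targets of p53, which is stabilised when ribosome assembly is disturbed, were also listed. Of 10 tested, 4 fell, where 5.67% of all tested genes did. All 10 had a fitted change below 0, against 50.7% of all tested genes. Leaving out any library other than WT replicate 3 gave 2 calls, those of Cdkn1a and Mdm2, in place of 4. Cdkn1a, a cell-cycle inhibitor, averaged 49.0 ± 0.309 FPKM in labelled KO and 59.1 ± 0.749 FPKM in WT (SD, n = 3 each; log2 fold change -0.29, adjusted p = 0.000673 in edgeR). Mdm2, which degrades p53, fell by 0.24 (adjusted p = 0.0118), and Phlda3 by 0.45 on the log2 scale (adjusted p = 0.0299, both in edgeR, and up to 0.0966 for Phlda3 with 1 library left out). Of 12 proliferation genes none was called in edgeR, DESeq2 or limma, although at an unadjusted p under 0.05 there were 1 higher and 4 lower, with a median of -0.14. Pcna, the sliding clamp of DNA replication, had a log2 fold change of -0.16 (adjusted p = 0.280), and Mcm3, a helicase subunit, 0.13 (adjusted p = 0.184).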

How the data were processed

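Per the labels' protocols, Trizol RNA was taken to poly(A) RNA, which was fragmented before reverse transcription. The tools named in the submitters' processing notes are StringTie 1.3.4d, HISAT2 2.0.4 and cutadapt 1.9, on mm10. Not given in the sources used here: tool settings and strandedness. In the deposited table there are 2 values per gene and library, FPKM, computed by the authors, and estimated counts, deposited as whole numbers. A gene with no counts carries an FPKM of 0.0001. For at least 98.6% of genes above 1000 counts in a library, FPKM was proportional to the count scaled by library size and exon-union length. For these genes the ratio of the 2 lay within 1% of that library's median ratio, and the 2 were not equal.

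The test on estimated counts was glmQLFTest of edgeR 4.0.16 (R 4.3.3) after TMM scaling and glmQLFit. Genes passed filterByExpr (minimum count 10, minimum total 15), and p-values were adjusted by Benjamini-Hochberg over 16256 genes. Limits are 95% limits from the t distribution with 6.5 degrees of freedom. FPKM is given as mean ± SD of 3 libraries. DESeq2 1.42.0, limma 3.58.1 on log2(FPKM + 0.1) and the other settings of the closing section were alternatives. Copies were found with BLAST 2.17.0 against GENCODE M21, and start sites come from RefSeq (GRCm38.p6). The edgeR test was also run on simulated counts. At 67280390 to 77997742 counts per library, coding members had 2570 to 49056 counts each, and counting error alone gives a coefficient of variation of 0.461% to 1.93%. For Rps10 in both groups and Rps26 in WT, the observed one was below that.

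Samples were grouped by genotype label, and the replicate numbers were not used to pair them. Members and lists were chosen with earlier results of these data known. Genes were named by rule: Mettl3, the called members, the 3 most abundant, both genes of each paralog pair, members with a rise or no test, 4 further 40S genes and, per list, up to 3 called genes or the 2 most abundant. Lyz2, Tox4, Tmtc1, Naca, Eif4b, Btf3, Rps12-ps3, Rps27a-ps2, Rps10-ps2, Gm44510, Med21, Rps2, Rps9, Rps12, Rps13, Rps15a, Rps20, Rps25 and Rps27a were named after their values were seen. Values of 4 members are not reported here by gene, in text or plots, though counts, sums and medians over the members include them. Lists of mast and dendritic cell markers were also measured; none of their tested genes was called in edgeR, DESeq2 or limma, or at an unadjusted p under 0.05.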

Additional observations from a re-analysis of the deposited data

How the results depend on the processing

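The fall of small-subunit genes kept its direction under every setting tried, with a median log2 fold change between -0.14 (upper-quartile scaling) and -0.10. Without 1 library the median ran from -0.1302 to -0.0967. The number called lower was 9, where 5.67% of all tested genes were. It was 8 to 13 with other tools, scalings, filters, pseudocounts or added copies, where 3.13% to 9.62% of all tested genes were. It was 5 to 8 without 1 library, the lowest without WT replicate 2, when Rps4l was still the 1 gene called higher. Fits without 1 library called 3.18% to 3.66% of all tested genes lower. No shared source is given for replicate numbers, and same-numbered libraries did not deviate together (correlations -0.0205, -0.0144 and 0.0153). With the replicate number as a block, 2 members were called lower, where 2.83% of all tested genes were. That fit called 1012 genes in all, against 2060 without the block. Leaving out 1 library gave 1244 to 1339 genes. Among 40 single genes, 611 of 719 recomputed values stayed on the same side of the threshold with the same sign, 82 lost and 10 gained a call, and 16 changed sign, all in 4 genes that were not called with all libraries in edgeR. These were Rps14 (-0.0224 with upper-quartile scaling, -0.0010 with TMM from other genes, -0.0007 with no filter, -0.0040 at a mean FPKM of at least 1, -0.0002 with -ps rows added, -0.0021 with copies added, and -0.0959 to 0.0572 without 1 library), Mettl3 (-0.0021 with upper-quartile scaling, -0.0661 to 0.1116 without 1 library), Rps25 (-0.4044 to 0.1424) and Rps27rt (-0.1427 to 0.8024). The cause was not tested. Reads shared with copies limit each single value, and depth limits Rps4l, which had the fewest counts.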
